A study of Homo sapiens with 18 samples.

Results

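The data were A3B-eGFP ChIP–seq and DRIP–seq peak lists from MCF10A cells, an untransformed human mammary epithelial line of basal character, and the regions described are the A3B-eGFP sites called only in DMSO. A member is a 500 bp window of the induced DMSO list that shared no base with any window of the induced PMA list or of the uninduced list. The rule found 2861 of the 5945 windows of the induced DMSO list (48.1%), among 17107 windows in the 3 ChIP lists. The rule used these 3 lists, and the members were selected on the authors' peak calls in them, so presence in one list and absence from the others is their definition and not a result.

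In the ChIP arm, MCF10A-TREx-A3B-eGFP cells carried a doxycycline-inducible A3B-eGFP, and chromatin was precipitated with an anti-GFP antibody. The induced PMA cells (IP-GFP_DOX+_PMA_2h) received doxycycline at 1 µg/ml for 24 h and PMA, which activates protein kinase C, at 25 ng/ml for 2 h. The induced DMSO cells (IP-GFP_DOX+_DMSO) received the same doxycycline with vehicle, and the uninduced cells (IP-GFP_DOX-_DMSO) received vehicle alone. PMA was not given to uninduced cells. The DRIP arm used A3B KO and WT MCF10A cells without A3B-eGFP, in DMSO and after 2 h and 6 h of PMA at 25 ng/ml. The A3B KO line was a single-cell clone made with a guide RNA that cuts both A3B and the neighbouring APOBEC3A and leaves a fusion of these genes. Each condition was 1 immunoprecipitated library, called against its own input, so no difference below has a replicate error or a p-value. The 95% Wilson intervals given with shares cover counting error only, and windows of one locus are not independent.

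APOBEC3B (A3B) is a nuclear enzyme that deaminates cytosine to uracil in single-stranded DNA, with a preference for cytosines that follow thymine. Single-stranded DNA is exposed in R-loops, in which nascent RNA pairs with the template strand and displaces the other strand. DRIP captures such DNA:RNA hybrids with the S9.6 antibody. R-loops are common at GC-rich promoters and along highly transcribed genes.

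The central 200 bases of 6 members show the kinds of sequence that the rule brought together. They were chosen after their values were seen, and are printed 5′ to 3′ from the plus strand of hg38. The first, with the highest fold enrichment of all members, lay outside genes. It is made of repeated copies of a satellite unit, shown in capitals as ATTCC, which reads GGAAT on the other strand.

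nearest to CWH43, chr4:49126606-49126805: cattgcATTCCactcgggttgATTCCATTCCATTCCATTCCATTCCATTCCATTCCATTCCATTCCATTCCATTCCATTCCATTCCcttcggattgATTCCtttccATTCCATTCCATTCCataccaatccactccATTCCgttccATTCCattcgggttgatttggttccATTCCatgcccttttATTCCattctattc

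The next sites lay near the start of SMIM47 and inside TNS4, KRT5, SLC7A5 and MIRLET7BHG. Capitals mark the motifs TGACTCA (AP-1), CACGTG (E-box), CCAAT and GGGCGG (GC box), searched on both strands. A match is a description of the letters and was not tested for binding.

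SMIM47, chr19:50794844-50795043: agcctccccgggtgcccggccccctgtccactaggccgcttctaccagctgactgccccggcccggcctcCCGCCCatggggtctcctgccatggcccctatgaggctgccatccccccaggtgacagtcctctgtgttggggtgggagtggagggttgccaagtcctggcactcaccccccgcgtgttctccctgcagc
TNS4, chr17:40481080-40481279: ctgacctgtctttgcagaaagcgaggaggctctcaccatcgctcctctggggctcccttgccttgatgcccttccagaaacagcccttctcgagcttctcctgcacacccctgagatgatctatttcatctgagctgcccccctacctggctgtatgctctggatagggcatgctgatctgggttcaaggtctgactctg
KRT5, chr12:52518042-52518241: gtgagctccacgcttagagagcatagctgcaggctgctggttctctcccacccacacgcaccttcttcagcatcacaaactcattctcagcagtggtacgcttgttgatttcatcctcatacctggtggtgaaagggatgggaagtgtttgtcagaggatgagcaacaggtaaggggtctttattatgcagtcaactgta
SLC7A5, chr16:87862871-87863070: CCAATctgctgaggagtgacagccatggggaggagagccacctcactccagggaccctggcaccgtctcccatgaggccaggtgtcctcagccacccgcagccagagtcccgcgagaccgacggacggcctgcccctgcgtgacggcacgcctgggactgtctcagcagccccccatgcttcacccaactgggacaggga
MIRLET7BHG, chr22:46107351-46107550: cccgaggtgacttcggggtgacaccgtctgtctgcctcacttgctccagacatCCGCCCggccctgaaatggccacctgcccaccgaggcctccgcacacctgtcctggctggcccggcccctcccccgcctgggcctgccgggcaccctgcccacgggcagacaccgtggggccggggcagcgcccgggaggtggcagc

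Of these, the SMIM47 and MIRLET7BHG stretches hold the GC box, as CCGCCC, and the SLC7A5 stretch holds CCAAT at its first base. The KRT5 and TNS4 stretches hold none of the 4 motifs, and GC content over the 200 bases was 49.5% at KRT5 and 74.5% at MIRLET7BHG.

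Most members were modest peaks. Their fold enrichment over input had a median of 2.95 (quartiles 2.43 and 3.50, range 1.39 to 15.5), against 3.11 for the 1482 induced DMSO windows shared with PMA and 3.91 for the 1602 shared with the uninduced list. The median pileup, the number of fragments stacked at the summit, was 32 at the members and 40 at the windows shared with PMA. The median −log10 q was 4.06 at the members and 6.00 at the shared windows. Thus 62.0% of members were under a −log10 q of 5, against 41.0% of shared windows. These values took part in the calls that chose the members and describe them only. At the margin of the rule, 85 members had a PMA window under 100 bp away, and 136 induced DMSO windows were kept out by an overlap of under 100 bp. Beyond the margin, 421 members (14.7%) had a PMA window within 1 kb, whereas 1518 (53.1%) had none within 50 kb.

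The members were split by their distance from the uninduced windows, a division chosen after seeing the data. The 2161 members (75.5%) with no uninduced window within 50 kb had a median pileup of 35 and a median fold of 2.78, and 31.1% lay within 2 kb of a protein-coding start. The 700 members (24.5%) within 50 kb of one had a median pileup of 19, a median fold of 3.50 and a promoter share of 9.86%. The level in the input can be read back from pileup and fold. It sat at its lowest value, 3.002 fragments, under 34.4% of the near members and 4.26% of the far ones. Near members thus stood over an input at this floor more often than far ones, and the part of this in their calls was not tested.

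**Figure D1:**
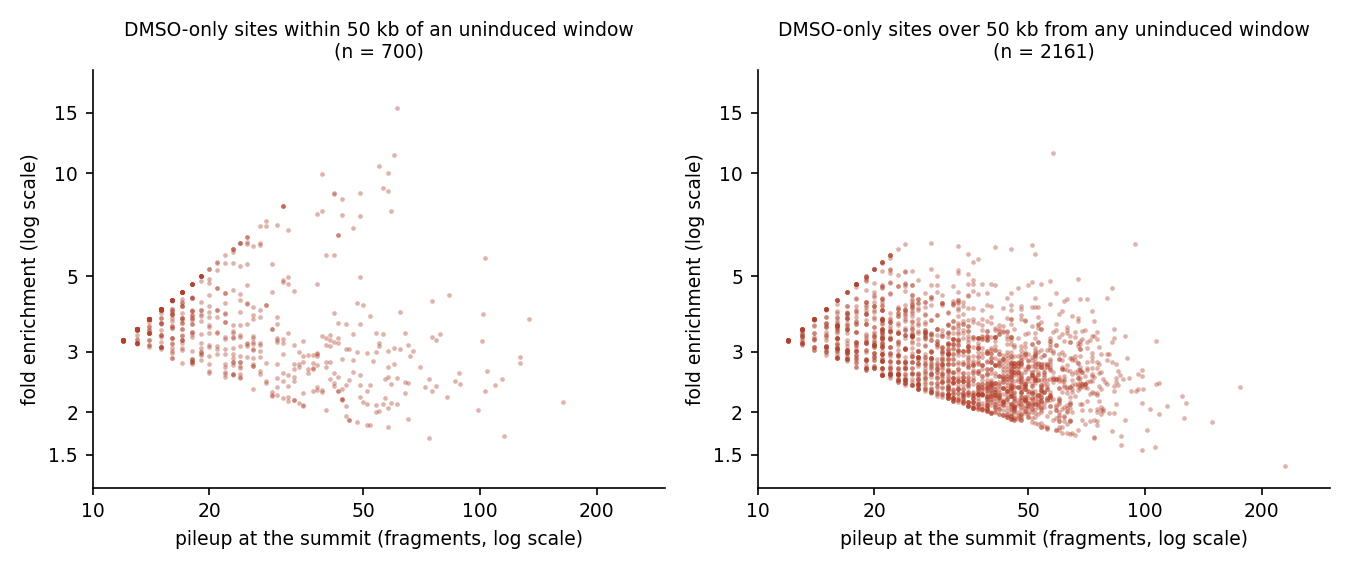
Pileup at the summit in fragments (x axis, log scale) against fold enrichment over input (y axis, log scale) for the DMSO-only sites, 1 point per window, with the 700 within 50 kb of an uninduced window on the left and the 2161 farther away on the right. The straight upper edge of each cloud is the set of sites with the input at its lowest value, and the far sites gather at a median pileup of 35 and a median fold of 2.78.

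The highest fold of all members, 15.5 with a pileup of 61, was at the satellite window printed first, which lay 1342 bp from an uninduced window and under a DRIP region in all 6 lists. Among far members with high folds were an exon of FKBP10, a collagen chaperone of the endoplasmic reticulum (fold 6.27), and the window upstream of SMIM47 inside ACP4 (fold 6.22, pileup 94). An exon of SLFN5, an interferon-inducible gene, had a fold of 6.22, and an intron of RPS24, a small ribosomal subunit protein gene, had 6.16. A window 17441 bp from the start of VEGFA, the endothelial growth factor, had 6.12, and an exon of STC2, a secreted stress-induced glycoprotein, had 6.00. The SMIM47 window lay 893758 bp from the nearest PMA window, whereas the RPS24 window lay 273 bp from one.

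Joined across gaps of up to 5 kb, the 2861 members made 1921 loci, of which 1491 held a single member and 170 held 3 or more. The locus with the most members ran over chr6:31271092-31328007, between and across HLA-C, an antigen-presenting HLA class I gene, and the lncRNA gene LINC02571. It held 32 members, no PMA window and no uninduced window. The input was at its lowest value under 18 of these 32 sites (56.3%). DRIP regions there numbered 25, 15 and 12 in A3B KO cells in DMSO and after 2 h and 6 h of PMA, and 3, 5 and 10 in WT cells. The floor in the input thus went with most of the sites of this locus, and its part in their calls was not tested. A further locus of 27 members lay at PSG8, a pregnancy-specific glycoprotein gene of a family of near-identical copies, and its DRIP regions numbered 2, 1 and 27 in A3B KO cells and 19, 4 and 22 in WT cells. Values in such duplicated families are uncertain because reads can be shared between copies. Another locus lay at KRT5, with 14 members over chr12:52511617-52520703 and no PMA window.

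Members were found at promoters more often than windows called only with PMA were. Within 2 kb of a protein-coding start lay 25.9% of members (24.4 to 27.6), 24.0% of windows shared with PMA (21.9 to 26.3), 16.1% of the 3999 windows called only with PMA (14.997 to 17.3) and 7.55% of windows shared with the uninduced list. Members and windows shared with PMA had overlapping intervals. In all, 68.1% of members had their centre in an annotated gene. The centre lay in an exon for 31.1% of members, against 34.8% of shared windows and 21.8% of windows called only with PMA.

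At single promoters the folds were mostly below 5. GCN1, an activator of the amino acid starvation kinase GCN2, had 2 members, with folds of 4.75 and 3.70. MRPL53, a mitochondrial ribosomal protein gene, had a fold of 4.61 and a pileup of 82, with its centre at −40 bp from the start. SYCE2, a synaptonemal complex gene, had 4.60. H4C5, a histone H4 gene, had 4.71 with a pileup of 50 and a centre inside the gene. None of the sites at MRPL53 and H4C5 lay under a DRIP region in any of the 6 lists. The SYCE2 site had a DRIP region in A3B KO cells with folds of 4.66, 3.22 and 3.68 in DMSO, at 2 h and at 6 h, and in WT cells with folds of 6.41 in DMSO and 3.84 at 6 h and no region at 2 h.

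The gene lists used to order the members were drawn up with earlier results of these data known, so their counts are descriptions. Over all 19970 protein-coding genes, 7.26% held a member in the body or within 2 kb of the start, and 3.43% within 2 kb of the start. That was 1450 genes with a member, beside 1560 with an induced PMA window of any class. Of 63 replication-dependent histone genes, which encode the core and linker histones of S phase, 23 (36.5%) held a member, 22 of them at the start, and 12 held a PMA window. Histone genes are short and crowded and share near-identical copies, so 1 window can count for more than 1 gene. At H1-4, a linker histone gene, the site had a ChIP fold of 3.06 and lay under a DRIP region with folds of 54.2, 29.5 and 26.4 in A3B KO cells and 46.5, 27.0 and 18.9 in WT cells. H4C11, an H4 gene, held 3 overlapping members with folds of 2.76, 3.30 and 3.08 and no DRIP region in any list. A ChIP site and a DRIP region thus went together at one histone gene and not at the other.

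DRIP regions lay under a sizeable share of members in every condition. In A3B KO cells 40.8%, 34.5% and 36.8% of members overlapped a DRIP region in DMSO, at 2 h and at 6 h, beside 46%, 43.7% and 46% of all induced DMSO windows. In WT cells the shares were 38.2% (36.4 to 39.96), 29.7% and 38.3%, beside 43.7%, 40.5% and 48.2%. The lowest share in both lines was at 2 h, the time at which the A3B-eGFP call was missing. Windows shared with PMA had 51.2%, 56.7% and 51.2% in A3B KO cells and 48.2%, 50.5% and 51.6% in WT cells, with no dip at 2 h. Windows shared with the uninduced list had 50.6%, 48.1% and 57.7% in A3B KO cells and 49.4%, 50.4% and 62.98% in WT cells, so in A3B KO cells they too had their lowest share at 2 h. Windows called only with PMA had their highest share at 2 h, with 24.9%, 40.3% and 31.6% in A3B KO cells and 25.0%, 36.2% and 29.8% in WT cells. The DRIP lists covered 1.49% to 2.72% of the genome, and the 2 h lists were longer than the DMSO lists, with 120428 against 98432 regions in A3B KO cells and 111771 against 91894 in WT cells.

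Of the 2861 members, 1705 (59.6%) overlapped a DRIP region in at least 1 list, 478 (16.7%) in all 6 and 1156 (40.4%) in none. Members with a lower ChIP fold overlapped DRIP regions more often, with 42.3% in WT DMSO in the lowest fold quartile and 32.6% in the highest. Sites within 2 kb of a start overlapped in 48.5% of cases in WT DMSO, sites in genes away from starts in 35.1% and sites outside genes in 33.6%.

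Site by site, DRIP regions present in DMSO were missing at 2 h more often under members than under shared windows. In WT cells 412 of 1092 such members (37.7%, 34.9 to 40.6) had no region at 2 h, against 17.9% of windows shared with PMA (15.3 to 20.9), 19.9% of windows shared with the uninduced list and 22.0% of windows called only with PMA. Over all DRIP regions of WT DMSO the share was 39.5%, so the members stood near the genome-wide level and the other A3B-eGFP windows below it. In A3B KO cells the share was 34.3% of 1168 members, against 15.02% of windows shared with PMA and 22.5% of windows shared with the uninduced list, and 38.3% over all DRIP regions. Regions also tended to be absent or present together in both lines. Of 879 members with a DMSO region in both lines, 171 (19.5%) had none at 2 h in either, 64 (7.28%) had none in A3B KO cells alone and 102 (11.6%) had none in WT cells alone. Of 604 windows shared with PMA, 31 (5.13%) had none in either line.

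By 6 h some of these regions were listed again. In WT cells 197 of the 1092 (18.04%) had no region at 2 h and one again at 6 h, 215 (19.7%) had none at either time and 610 (55.9%) had one at both. Over all DRIP regions of WT DMSO these shares were 18.2%, 21.4% and 51.98%, so the members stood near the genome-wide level here too. The share without a region at 6 h was 26.1%, beside 29.9% over all DRIP regions, and in A3B KO cells it was 29.1%, beside 27.4%. Few members without a DMSO region had one at 2 h, 9.61% in WT cells, against 21.1% of windows shared with PMA and 22.3% of windows called only with PMA.

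Where a region was called in both DMSO and 2 h, it stood lower in the list at 2 h under most members. Each DRIP region was given its percentile by fold within its own list. A percentile does not remove the difference in length between the lists, and only regions called in both lists entered. In WT cells the 680 such members had a median percentile of 52.2 at 2 h, against 82.9 in DMSO, with a median difference of −15.7 points, and 524 (77.1%) were lower at 2 h. In A3B KO cells the 767 such members had 55.3 at 2 h, against 79.3 in DMSO, with a median difference of −7.08, and 68.6% were lower. Windows shared with PMA moved by a median of −0.01 points in A3B KO cells and −0.53 in WT cells, windows called only with PMA by 2.198 and 1.90, and all DRIP regions by 0.04 and −0.12. Windows shared with the uninduced list moved by −2.08 points in A3B KO cells, where 65.1% were lower at 2 h, and by 0.04 in WT cells, where 46.7% were lower. In A3B KO cells most regions under this class thus stood lower at 2 h, as they did under the members. Without the members near uninduced windows the median difference was −7.01 in A3B KO cells and −17.9 in WT cells.

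Between the lines, A3B KO cells had a DRIP region at 1168 members in DMSO and WT cells at 1092, a ratio of 1.07, which was also the ratio of the 2 list lengths (1.07). At 2 h the numbers were 988 in A3B KO cells and 850 in WT cells, a ratio of 1.16 beside 1.08 for the lists, and at 6 h 1053 and 1095, a ratio of 0.962 beside 1.02. With 1 library per line the differences from the list ratios have no error.

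Of 685 promoters with a member, 75.3%, 71.4% and 69.3% had a DRIP region in A3B KO cells in DMSO, at 2 h and at 6 h, and 74.7%, 64.2% and 70.4% in WT cells. Over all 19970 promoters the shares were 36.05%, 36.5% and 38.3% in A3B KO cells and 35.0%, 31.9% and 38.5% in WT cells. Of the promoters with a member and a DMSO region, 12.98% had none at 2 h in A3B KO cells and 20.7% in WT cells, against 23.2% and 30.2% of all promoters.

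Genes with several members had fewer DRIP regions at 2 h more often than genes in general. Of 67 genes with at least 3 members in the body and no PMA or uninduced window, 66 had a DRIP region in DMSO or at 2 h. In WT cells 38 of 66 (57.6%) had fewer regions at 2 h than in DMSO, beside 32.8% of all genes, and in A3B KO cells 35 of 66 (53.03%), beside 30.4%. At 6 h the share was 34.3% in A3B KO cells, beside 17% of all genes, and 19.7% in WT cells, beside 17.6%. Of genes with at least 3 windows called only with PMA, 14.7% had fewer in WT cells at 2 h. In WT DMSO the 66 genes held 480 regions, and the 23260 of all genes held 76772. The 66 thus had more regions per gene to lose, and these shares are not like for like. Overlapping genes share windows, and long genes hold more regions, so genes are not independent counts.

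The basal and hemidesmosome genes, which build the keratin network and the anchor to the basement membrane, held a member in 10 of 24 cases (41.7%), beside 7.26% of all protein-coding genes. A PMA window also lay in 10 of the 24, so the high count was not particular to the members. Over the 10 genes with a member, DRIP regions summed to 89, 100 and 139 in A3B KO cells and 102, 80 and 112 in WT cells. At 2 h 4 had fewer and 5 more in A3B KO cells, and 5 had fewer and 1 more in WT cells. LAMA3, with 1 member and 72 PMA windows, had 13, 25 and 32 in A3B KO cells and 8, 17 and 20 in WT cells. Of the cell type markers, 5 of 8 basal genes held a member, against 0 of 7 luminal genes and 0 of 6 genes of other tissues. In the longer list of 12 luminal epithelial genes 1 (8.33%) held a member, at MUC1, a mucin of the apical surface. KRT5, the basal type II keratin, had 7 members across its 5956 bp and no PMA window, with ChIP folds from 2.45 to 3.98 and pileups from 27 to 46. The DRIP region over its sites at 1447 and 1795 bp from the start had folds of 14.8, 4.41 and 4.08 in A3B KO cells and 27.1, 6.55 and 5.15 in WT cells. The percentile of its top region was 99.4, 37.6 and 50.4 in A3B KO cells and 99.8, 80.7 and 54.9 in WT cells. KRT5 thus stood at the top of the DRIP lists in DMSO and in the middle of them at 6 h in both lines.

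KRT14, the type I partner of KRT5, had 2 members with folds of 3.88 and 2.76, and its top DRIP region stood at percentiles of 98.9, 89.4 and 76.1 in A3B KO cells and 99.6, 96.0 and 97.0 in WT cells. ITGB4, the β4 integrin of hemidesmosomes, had 7 members with folds from 2.23 to 3.32, and 1 PMA window. DRIP regions in it numbered 25, 9 and 20 in A3B KO cells and 25, 10 and 19 in WT cells. Of its 7 sites, 6, 2 and 4 lay under a region in A3B KO cells and 6, 3 and 3 in WT cells. GALK1, a galactose kinase gene next to ITGB4 that shares 1 of these sites, held 2 PMA windows. It had 8, 0 and 4 regions in A3B KO cells and 8, 1 and 3 in WT cells. TNS4, an integrin-linked tensin that is induced by growth factors, had 19 members among 31 induced DMSO windows. It also held 9 PMA windows, so A3B-eGFP was still called in the gene with PMA. Its DRIP regions numbered 21, 20 and 22 in A3B KO cells and 16, 14 and 23 in WT cells. DRIP regions at 2 h were few at ITGB4 and GALK1 and close to the DMSO number at TNS4.

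Amino acid transport and stress response genes held a member in 6 of 20 cases (30.0%), beside 7.26% of all protein-coding genes, and a PMA window in 3. SLC7A5, the light chain of the large neutral amino acid transporter LAT1, had 7 members outside its exons, 2403 to 22742 bp from the start, with folds from 2.18 to 3.32 and pileups from 23 to 38. The nearest PMA window lay 397622 to 417961 bp from them. DRIP regions in the gene numbered 22, 2 and 6 in A3B KO cells and 27, 1 and 12 in WT cells. Of the 7 sites, 6, 0 and 3 lay under a region in A3B KO cells and 6, 0 and 5 in WT cells. At 2 h every DRIP region under these sites was missing from both lists, and most were listed again at 6 h in WT cells. SLC3A2, the heavy chain of the same transporter, had 1 member, which lay under a DRIP region in DMSO and at 6 h but not at 2 h in A3B KO cells, and at all 3 times in WT cells.

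Over the 6 genes of that list with a member, DRIP regions summed to 56, 30 and 46 in A3B KO cells and 56, 24 and 38 in WT cells, of which SLC7A5 made the larger part of the difference. Across all 94 listed genes with a member, the sums were 693, 624 and 782 in A3B KO cells and 673, 571 and 738 in WT cells. At 2 h 47 of the 94 had fewer regions than in DMSO and 24 had more in A3B KO cells, and 44 had fewer and 24 more in WT cells. Of all genes with a DRIP region in DMSO or at 2 h, 30.4% had fewer and 47.9% more in A3B KO cells. In WT cells these shares were 32.8% and 46.4%. The sums over all genes rose from 81541 in DMSO to 96889 at 2 h in A3B KO cells and from 76772 to 88042 in WT cells.

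Members also lay in runs across microRNA host genes. MIRLET7BHG, the host transcript of let-7a-3 and let-7b, had 14 members over its 60060 bp and no PMA window, with folds from 1.94 to 2.95. DRIP regions there numbered 26, 8 and 23 in A3B KO cells and 31, 3 and 18 in WT cells. The site 16992 bp from the start, outside exons, kept its region throughout, with folds of 11.9, 9.29 and 10.7 in A3B KO cells and 12.7, 4.86 and 7.12 in WT cells. MIR17HG, the host of the miR-17-92 cluster, had 5 members with folds from 2.25 to 3.20. Its top DRIP region stood at percentiles of 99.6 in DMSO and 96.0 at 6 h in A3B KO cells, with no region at 2 h, and at 99.6, 23.8 and 94.0 in WT cells.

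MIR205HG, the host of miR-205, a microRNA of basal epithelium, had 7 members in a row, 6 of them in its body of 4032 bp. Their folds ran from 2.06 to 3.40 and their pileups from 58 to 101, the highest being at the window over the MIR205 hairpin at chr1:209432133-209432242. The nearest PMA and uninduced windows lay 1658 bp and 1637 bp from that site. DRIP regions in the gene or within 2 kb of its start numbered 5, 2 and 5 in A3B KO cells and 4, 2 and 5 in WT cells. The top region stood at percentiles of 99.7, 20.9 and 98.9 in A3B KO cells and 99.7, 56.0 and 99.7 in WT cells. Under the hairpin site the DRIP folds were 19.4, 3.69 and 10.6 in A3B KO cells and 22.0, 3.98 and 16.3 in WT cells. The mature products of this hairpin are printed from RefSeq (GRCh38.p14, plus strand) with the seed, bases 2 to 8, in capitals, because a member lay over it and under a DRIP region in all 6 lists.

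hsa-miR-205-5p, chr1:209432166-209432187: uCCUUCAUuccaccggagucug
hsa-miR-205-3p, chr1:209432203-209432223: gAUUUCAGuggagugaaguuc

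In all, the 2861 members overlapped 12 of 1877 annotated microRNA genes, against 6 for the 1482 windows shared with PMA and 10 for the 3999 called only with PMA. The classes differ in size, so these counts do not show that microRNA genes were more frequent under members than under shared windows. Members overlapped 4 of 1884 small nuclear RNA genes, against 25 for windows shared with PMA.

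**Figure D2:**
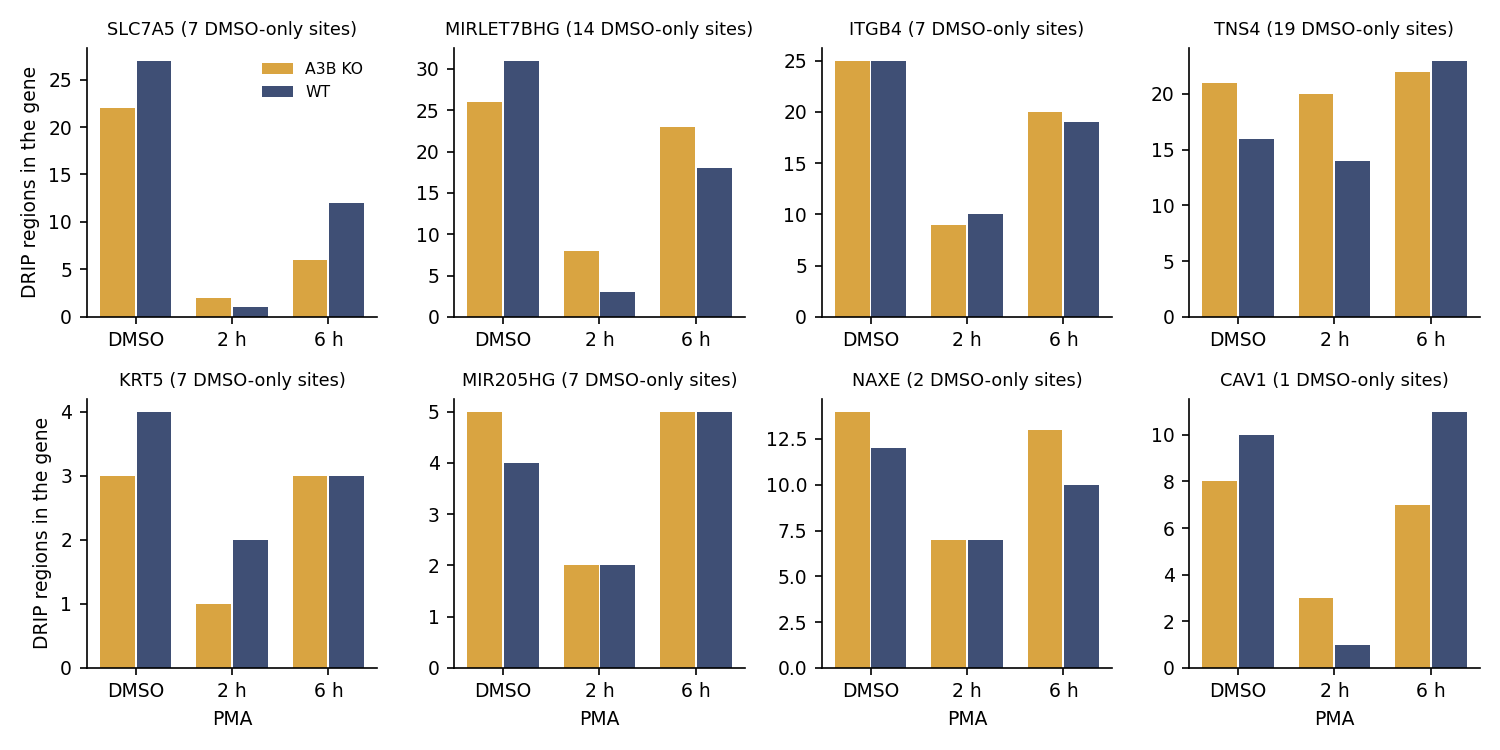
Number of DRIP regions (y axis) in DMSO and after 2 h and 6 h of PMA (x axis) for 8 genes that hold DMSO-only sites, with A3B KO cells left of WT cells in each pair of bars. SLC7A5 has 2 and 1 regions at 2 h, against 22 and 27 in DMSO, and TNS4 has 20 and 14, against 21 and 16.

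Other named genes followed either course. CAV1, the caveola coat protein gene, had 1 member at −159 bp from its start, which lay under no DRIP region in any list. Elsewhere the gene had 8, 3 and 7 DRIP regions in A3B KO cells and 10, 1 and 11 in WT cells. TENT5B, which encodes a nucleotidyltransferase-family protein, had 4 members and 3, 0 and 4 regions in A3B KO cells and 6, 0 and 4 in WT cells. STC2 had 2 members and 4, 1 and 4 regions in each line. NAXE, a metabolite repair epimerase gene and one of the genes measured singly in the study, had 2 members at its start and 14, 7 and 13 regions in A3B KO cells and 12, 7 and 10 in WT cells. At CAV1, TENT5B, STC2 and NAXE the smallest number of regions over the gene was at 2 h in both lines. This did not always hold at the sites, since 1 of the 2 NAXE sites lay under a region in every list. TENT5B and STC2 each also held 1 PMA window. By contrast EIF4A1, the RNA helicase of cap-dependent translation, had 5 overlapping members at its start, all under a DRIP region at every time, with top folds of 27.1, 18.2 and 14.1 in A3B KO cells and 27.4, 22.0 and 31.8 in WT cells.

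Ribosomal protein genes held a member in 12 of 79 cases (15.2%) and translation factor genes in 7 of 25 (28.0%). Over all protein-coding genes the share was 7.26%. A DRIP region in WT DMSO lay in 78 of the 79 and 25 of the 25, against 14004 of 19970 protein-coding genes. PMA windows lay in 13 of the 79 and 4 of the 25. RPS23, a small subunit protein gene, had 1 member in an exon with a fold of 5.80 and a pileup of 35. Its DRIP folds were 58.4, 31.5 and 16.5 in A3B KO cells and 44.7, 19.9 and 40.9 in WT cells. Over the 12 ribosomal genes, DRIP regions summed to 85, 64 and 75 in A3B KO cells and 77, 57 and 70 in WT cells. At 2 h 10 and 8 of them had fewer than in DMSO. Of all genes with a DRIP region in DMSO or at 2 h, 30.4% and 32.8% had fewer. Of 7 translation factor genes with a member, 5 had fewer in A3B KO cells and 2 in WT cells, so the lines did not share a direction there.

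Among PMA-responsive gene groups, read beside the 7.26% of all protein-coding genes, the shares differed. Immediate early genes, which are switched on within minutes of kinase signalling, held a member in 4 of 33 cases (12.1%), at MYC, ZFP36L1, ATF3 and FOSL2. More of them, 13 of 33, held a PMA window. MYC, a growth-promoting transcription factor gene, had 7 members among 10 induced DMSO windows, and 1 uninduced window. Its top DRIP region stood at percentiles of 99.95, 75.5 and 99.95 in A3B KO cells and 99.93, 91.4 and 99.95 in WT cells. Of the 7 sites, 4, 4 and 6 lay under a DRIP region in each line, so the number did not fall at 2 h. MAPK feedback genes held a member in 2 of 16 cases (12.5%), at SPRY2 and DUSP7, which both restrain ERK signalling, and a PMA window in 4. NF-κB target genes held a member in 1 of 20, at IL1A, and a PMA window in 2. Genes of other tissues held a member in 0 of 24 and a PMA window in 1. Small nucleolar RNA host and abundant noncoding RNA genes held a member in 11 of 20 cases (55.0%), beside 2.90% of all lncRNA genes, and a PMA window in 9.

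In sequence, the members were GC-rich. Their median GC content was 55.9% (quartiles 47.8 and 64.4), against 54.8% for windows shared with PMA and 52.0% for windows called only with PMA. Far members had 58.8% and near members 47.2%. A CpG ratio, observed over expected, of at least 0.6 was found in 29.0% of members, 26.3% of shared windows and 14.9% of windows called only with PMA. The TC context in which A3B prefers its cytosines held 21.8% of member cytosines, 21.6% of those in shared windows and 23.1% of those in windows called only with PMA. The GC box GGGCGG, on either strand, was in 36.5% of members, 37.0% of shared windows, 26.9% of windows called only with PMA and 32.4% of all induced DMSO windows. TGACTCA was in 13.3%, 11.7%, 12.1% and 11.4% of these sets, CACGTG in 10.8%, 10.5%, 9.40% and 10.0%, and CCAAT in 40.02%, 42.2%, 40.4% and 40.9%. A pair of GGAAT units in tandem, on either strand, was in 3.14% of near members and 0.139% of far ones. None of these motifs contains another, though TGACTCA and CACGTG can share their end letters. Members and shared windows had close values in these measures, and the windows called only with PMA were poorer in GC and CpG.

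DRIP overlap was higher at GC-rich members. In 5 groups of equal size, from the lowest to the highest GC content, 19.2%, 34.8%, 44.9%, 45.6% and 46.3% of members overlapped a DRIP region in WT DMSO, and 4.02%, 6.82%, 17.7%, 35.1% and 66.1% lay within 2 kb of a start. The share of those without a region at 2 h had no such order, at 44.5%, 33.7%, 34.2%, 41.4% and 37.7%.

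**Figure D3:**
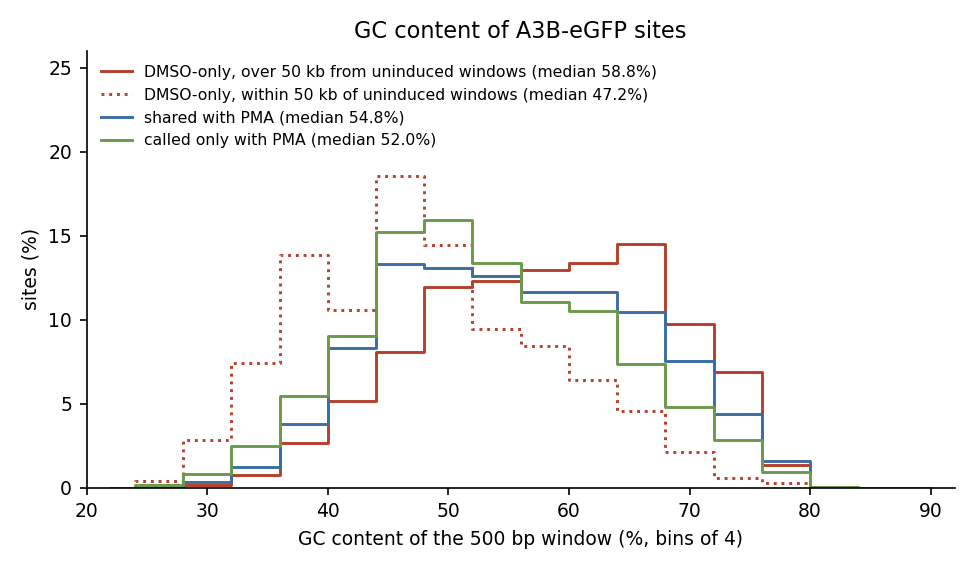
GC content of the 500 bp windows (x axis, percent, in bins of 4 points) against the share of sites (y axis, percent) in each class of A3B-eGFP site. The DMSO-only sites have a median of 55.9%, above the 52.0% of the sites called only with PMA, and reach farther into the GC-rich end.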

How the data were processed

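The deposited lists came from 18 libraries, 9 immunoprecipitations and 9 inputs, 1 library per condition. Per the labels and the study's methods, the authors trimmed reads (Cutadapt 1.13), aligned them to hg38 (STAR 2.6.1d), handled them with SAMtools 1.3.1, Picard and bedtools 2.29.2 and called peaks with MACS2 at a q of 0.01 against the matching input. The processing notes give MACS2 2.2.6 and the methods another version. For both ChIP and DRIP, several immunoprecipitations were pooled into 1 library before sequencing. Each deposited window spans 500 bp around a summit and carries the pileup (a signal in fragments), the fold enrichment (a ratio to the input), and a −log10 p and a −log10 q, as the authors' caller gave them. The reads behind each library are not given in the sources used here, so depth could not be weighed. Whether starts count from 0 or 1 is not stated.

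Windows on the mitochondrial genome and outside chromosomes 1 to 22 and X were left out. Overlap was at least 1 bp. Genes were those of GENCODE release 44 on hg38, and 19970 protein-coding genes were used, each with its most 5′ start. A window belonged to a gene, in the named gene counts, when its centre lay in the body or within 2 kb of the start. The input level was computed as (pileup + 1) / fold − 1. Because each condition was 1 library, no test was run. Shares have Wilson 95% intervals. The overlap code was tested on a simulated list of 5945 windows and found 1500 of 1500 planted overlaps. Work was done in Python 3.11.15 with pandas 2.3.3, numpy 2.4.6 and pysam 0.24.0.

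Named genes were the 15 with the most members in the body, the 15 members with the highest fold, the 15 promoters with the highest fold, up to 4 genes of each list, the genes the study measured singly, and genes added after their values were seen. The members and lists were chosen with earlier results of these data known. Alternatives were the overlap needed, a stricter q, merged windows, lists of equal length, the promoter distance and the far members alone. One high-fold window is not reported here.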

Additional observations from a re-analysis of the deposited data

How the results depend on the processing

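The number of sites called only in DMSO was 1087 when a −log10 q of at least 5 was asked of the induced DMSO list, against 2861, and 1910 to 3326 under the other overlap, merging and list-length settings. The share overlapping a DRIP region of WT DMSO was 23.2% when 250 bp of overlap was required, 31.9% with a −log10 q of at least 5 on the DRIP list and 40.7% among far members alone. The share without a DRIP region at 2 h in WT cells was 46.3% with 250 bp of overlap and 44.8% when the 6 DRIP lists were cut to the length of the shortest. The promoter share was 21.1% within 1 kb, 27.9% with the stricter q and 31.1% among far members alone. With merged windows it was 25.4% at members and 25.6% at windows shared with PMA, so their order turned. Windows shared with PMA stayed below the members in the share without a region at 2 h, at 17.1% to 27.4%, under every setting run. The far-member setting was chosen after seeing the data. Of the remaining values, 12 moved by less than their intervals or, for counts, by under 1.5 times. The median GC content ran from 55.6% to 58.8% across its settings and has no interval of its own. No paired analysis was possible because each condition was 1 library with no replicate numbers to share, and no library could be left out. The cause of these shifts was not tested, and read depth, which sets how many weak windows pass a threshold, is unknown.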

Other observations

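By chromosome, DMSO-only sites made up 21 of the 28 induced DMSO windows on chromosome 18 and 70.5% of the 132 on chromosome 22, but 15.5% of the 129 on chromosome 21 and 29.1% of the 234 on chromosome 14. Chromosomes 1 and 17 held the most DMSO-only sites, with 401 and 275.

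TRNP1, which encodes a nuclear protein of neural progenitors, lay in one locus with TENT5B that held 7 members. DRIP regions across it numbered 7, 0 and 8 in A3B KO cells in DMSO, at 2 h and at 6 h, and 11, 0 and 10 in WT cells. At PSG9, a pregnancy-specific glycoprotein gene, 14 members lay beside 25 PMA windows, and of the 14 sites 5, 3 and 4 had a DRIP region in A3B KO cells in DMSO, at 2 h and at 6 h, and 1, 3 and 5 in WT cells.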
